A study of Sorghum bicolor with 96 samples.

Results

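The response described here is that of sorghum (Sorghum bicolor) leaves labelled RTX430 to 1 h at 10 °C at zeitgeber time 1 (ZT1, in hours after lights on). It rests on 6 of the 96 RNA-seq libraries of the series, 3 from cold-treated plants and 3 from controls sampled at the same time, chosen by their labels alone. Growth temperatures were 30 °C in the day and 20 °C at night for all plants, and the controls stayed at them. The cold experiment has 48 libraries, from RTX430 and SC224 with and without cold at ZT1, ZT6, ZT9 and ZT15, each group holding 3 libraries labelled as biological replicates. The submitters describe RTX430 as thermo-sensitive and SC224 as tolerant, and the series was designed to compare temperature responses between hours and genotypes. RTX430 at ZT6, ZT9 and ZT15 serves below for comparison, with 6 libraries each and controls of its own at every time. SC224 at ZT1 (6 libraries) serves too. ZT15 lies in the night, so the step to 10 °C started there from 20 °C and in the dark. At the day times it started from 30 °C.

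Sorghum is a cereal of warm regions that is easily injured by chilling. Plant cells answer a drop in temperature within minutes to hours with calcium signals and the induction of transcription factors, which in turn raise genes for protective proteins and for the metabolism of sugars and membranes. The circadian clock gates this answer in the plants in which it has been studied, so that the same cold treatment changes a gene by different amounts at different hours. Many leaf transcripts also rise and fall over the day without any stress.

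The genes carry identifiers only. The deposited table does not pair them with names, and none of its 34129 identifiers (0) occurred in the RefSeq table used here, so no role is given to any gene. Only 4 identifiers are printed, and the leaf label and functional gene groups could not be checked against marker genes. The other genes are described by their size, their rank and their behaviour across libraries.

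The 6 libraries hold 2522203 to 7584489 counts, and 19241 to 21974 genes had at least 1 count in them. Levels are CPM (counts scaled to a library size of 1000000) after TMM scaling, which corrects for a few abundant genes taking a large share of a library. RTX430 libraries of the cold experiment and of the heat experiment did not express the same set of genes: 250 genes above 3 CPM in one were under 0.05 CPM in the other. Of the summed level of the genes that tell the cold labels apart, 99.2% to 99.7% came from the RTX430 genes in each of the 6 libraries, so these 6 do not disagree with each other. By the same count, the SC224 libraries and the heat-experiment libraries labelled RTX430 differed in only 6 genes. In which experiment the labels name the true genotypes cannot be told here, so RTX430 (sensitive) and SC224 (tolerant) are used as labels only and may be exchanged. Of the 6 libraries, control replicate 3 stood apart. It deviated from the mean of its group with an SD of 0.63 across genes (log2). The SD was 0.40 and 0.36 for the other controls and 0.25 to 0.29 for the cold libraries. Control replicate 3 is kept, and the counts it moves are given with and without it. Libraries of later times had SDs of up to 0.59 at ZT6, 0.65 at ZT9 and 0.50 at ZT15. Leaving out the one at 0.65, cold replicate 3 of ZT9, moved the genes called at ZT9 from 388 to 648. Fewer calls at a later time thus do not by themselves show a weaker response.

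At ZT1, 1 h of cold raised 568 genes and lowered 635 of the 18248 genes tested (edgeR quasi-likelihood F-test, Benjamini-Hochberg adjusted p under 0.05). These are 3.11% and 3.48% of the genes tested, or 6.59% in either direction. The median log2 fold change of the raised genes was 1.91, with quartiles of 1.28 and 3.01, and that of the lowered genes was -1.43, with quartiles of -2.13 and -1.02. A change of at least 4 log2 units was reached by 70 raised and 24 lowered genes, and one of at least 1 unit by 496 and 480. These sizes belong to genes chosen for passing this test and are given as a description. Of the raised genes, 73 had at most 3 counts in every control, and with those held at their ratio to 3 counts the median rise was 1.77. The corresponding median for the lowered genes was -1.41, with 30 held in this way.

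In 555 of the 568 raised genes, every cold library lay above every control, and in 615 of the 635 lowered genes every cold library lay below. Such separation was found, in either direction respectively, for 11.7% and 14% of all genes tested. Control replicate 3 was the highest control in 463 of the lowered genes (72.9%) and the lowest control in 263 of the raised genes (46.3%). Without it, 358 genes were called raised and 325 lowered, and none (0) of the genes called in both fits changed direction. Of the genes called with all libraries, 334 raised and 306 lowered genes were called again. The balance between the directions rests on the scaling. With TMM, 47.2% of the calls were rises. With library totals alone, 644 genes were called raised and 293 lowered, or 68.7% rises, and the median of all genes moved up by 0.19 on the log2 scale. Leaf RNA was measured in bulk, so fewer cells of a type and less RNA per cell cannot be told apart.

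**Figure D1:**
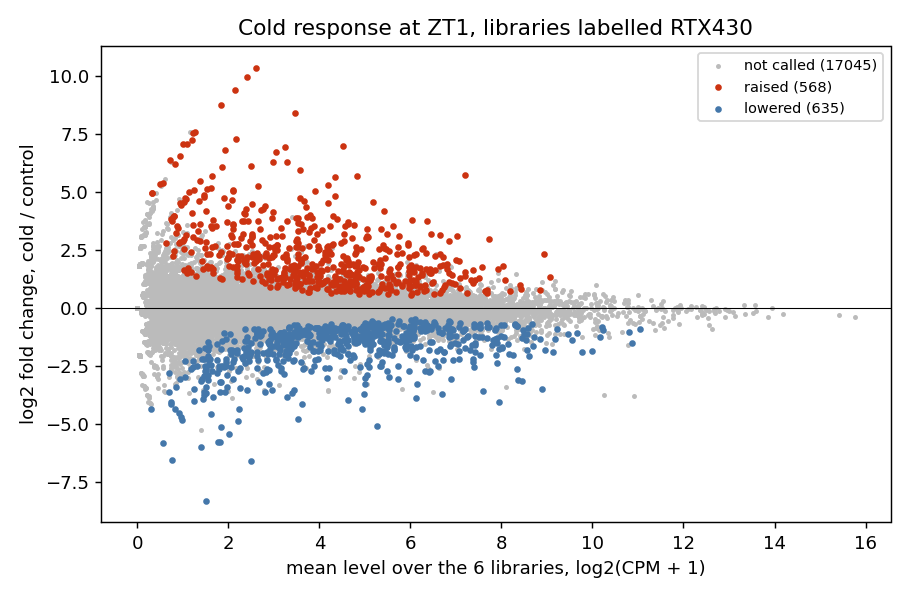
Log2 fold change of each of the 18248 genes (cold over control at ZT1, vertical) against its mean level over the 6 libraries (horizontal, log2 of CPM plus 1); each point is a gene. The 568 raised genes extend to a fitted log2 fold change of 10.36 and the 635 lowered genes to -8.30, both against groups with 0 counts.

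Summed over each group of genes, the change is visible in every library. The same libraries chose the genes, so this separation follows from the choice and is given as a description. The 568 raised genes together held 10080 to 12130 CPM in the controls and 31960 to 42040 CPM in the cold libraries. The 635 lowered genes together held 70120 to 110160 CPM in the controls and 31050 to 32050 CPM in the cold. The control at 110160 is set apart from the others, while the cold libraries lie close together. Per gene, the median raised gene stood at 6.02 to 7.23 CPM in the 3 controls and 26.8 to 33.2 CPM in the 3 cold libraries. The median lowered gene stood at 34.5 to 45 CPM and 14.4 to 14.6 CPM.

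Sobic.010G016500 had the largest rise among genes averaging at least 10 CPM in one arm. It had 0 counts in all 3 controls and 29.2, 51.1 and 31.9 CPM in the cold libraries. Every cold library was far above the controls, and the gene was at least 43.2-fold higher in the cold, taking 3 counts per library as the floor (adjusted p = 5.39e-08). It was also nearly silent in the controls of later times, with 1 count in all at each of ZT6, ZT9 and ZT15, and present in the cold. Its cold level was 38.2 to 55.1 CPM at ZT6, 14.5 to 32.4 CPM at ZT9 and 3.07 to 24.8 CPM at ZT15. At each of these times its response was called too, with adjusted p = 2.37e-08, 4.1e-06 and 1.25e-05 (edgeR). From the summed counts, the ratio of cold to control was 588 at ZT6 (95% exact interval 105 to 23300) and 140 at ZT15 (24.8 to 5590), counting error only. The ZT1 response did not pass the test of a difference from the mean of the later ones (adjusted p = 0.688).

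Sobic.002G421600 was chosen after its values were seen, as the only gene among both the 12 largest rises and the 5 differences from later times that were most positive. It stood at 0.314, 0.788 and 0.354 CPM in the ZT1 controls and at 33.6, 62.1 and 34.1 CPM in the cold. The groups did not overlap, and the log2 fold change was 6.28 ± 0.74 (SE, n = 3 against 3, edgeR adjusted p = 1.75e-07). Its controls were higher at later times, at 3.43 to 10.9 CPM at ZT6, 4.13 to 8.36 CPM at ZT9 and 19.6 to 66.8 CPM at ZT15. At ZT15 the cold libraries, at 9.99, 14.5 and 54.4 CPM, overlapped the controls. They did not overlap at ZT6 and ZT9, where the cold libraries held 12.0 to 23.9 CPM and 20.2 to 32.1 CPM. The log2 responses at ZT6, ZT9 and ZT15 were 1.48, 2.04 and -0.41. Of these, the one at ZT9 was called raised (adjusted p = 0.0414 by edgeR) and the one at ZT6 was not (0.145). The ZT1 response exceeded the mean of the later responses by 5.24 on the log2 scale (adjusted p = 6.5e-05 by edgeR). Over the 4 times its control means ran from 0.485 to 36.2 CPM and its cold means from 18.1 to 43.3 CPM.

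Sobic.007G204100 had the largest fall among genes averaging at least 10 CPM in one arm. It stood at 26.7, 27.6 and 20.2 CPM in the ZT1 controls and at 0.487, 0 and 0.292 CPM in the cold. The 3 cold libraries held 3 counts in all against 282 in the controls, a ratio of 113 in favour of the controls (95% exact interval 38.1 to 549, counting error only). The response was called with adjusted p = 1.96e-06 (edgeR). Its controls held 0.909 to 3.88 CPM at ZT6, at most 0.563 CPM at ZT9 and 0 counts at ZT15. Both arms were at or under 3 counts per library at ZT9 and ZT15, so no fold is given there. For the same reason the difference from the later mean had no usable SE, and the test could not call it.

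Sobic.010G212100, chosen like its raised counterpart, was the only gene among both the 12 largest falls and the 5 most negative differences. It stood at 6.91, 12.4 and 22 CPM in the ZT1 controls, the highest being control replicate 3, and at 0, 0.229 and 0.438 CPM in the cold. The groups did not overlap, with 147 counts in the controls and 4 in the cold, a ratio of 44.0 in favour of the controls (95% exact interval 16.8 to 164, counting error only). The response was called with adjusted p = 8.99e-06 (edgeR). At ZT6, ZT9 and ZT15 its controls were at most 2.97, 1.5 and 0.363 CPM. The summed counts favoured the controls 2.25-fold at ZT6 (0.905 to 6.33) and the cold 3.7-fold at ZT15 (1.16 to 15.4). These intervals leave out the spread between libraries, and edgeR called neither response (adjusted p = 0.575 at ZT6 and 0.741 at ZT15). The fitted ZT1 response minus the later mean was -5.59 on the log2 scale (adjusted p = 0.00028 by edgeR), an estimate whose size is loose because cold libraries at ZT1 and controls at ZT15 were near the floor. Both calls held without control replicate 3.

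**Figure D2:**
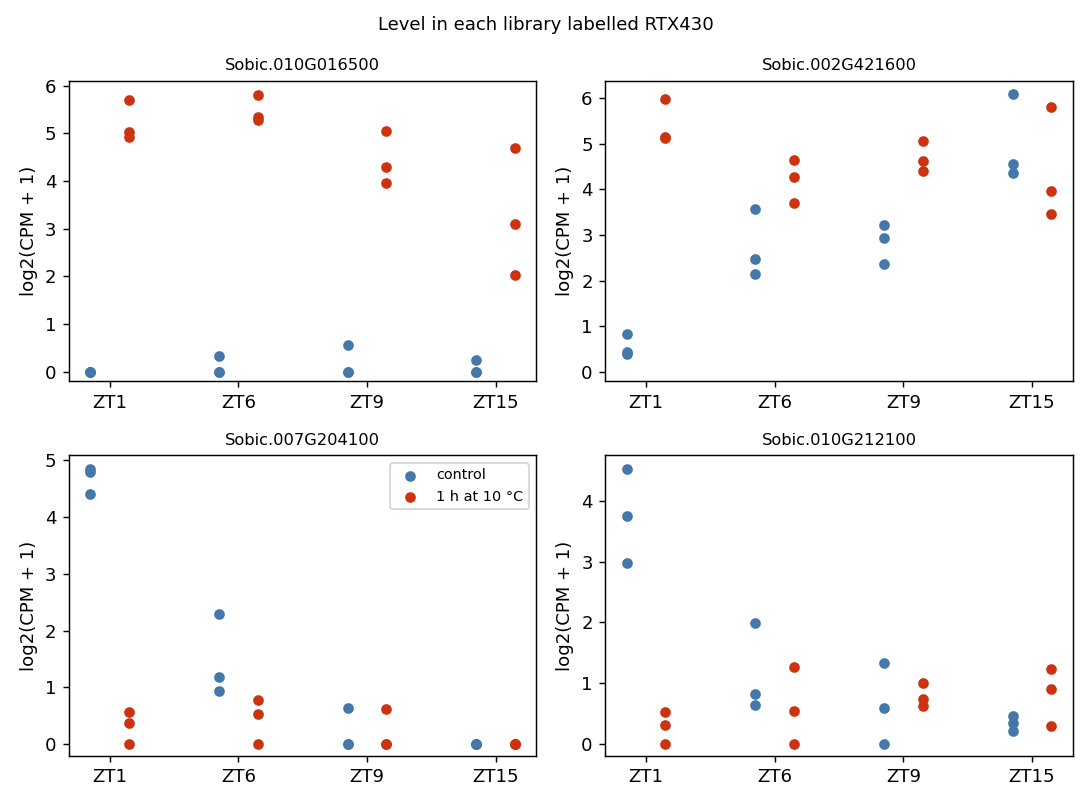
Level of the 4 named genes in each of the 24 RTX430 libraries of the cold experiment (log2 of CPM plus 1, vertical) at the 4 times, with controls in blue and plants given 1 h at 10 °C in red; each point is a library. Sobic.010G016500 is high in the cold at every time, whereas the controls of the other genes change with the hour.

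The 12 largest rises and the 12 largest falls differed in how they behaved later in the day. The 12 rises ran from 6.27 to 10.36 on the log2 scale, and 9 of them had at most 3 counts in every ZT1 control, so that their fitted sizes are loose. Of the 12, 9 were called raised at ZT6, ZT9 and ZT15 as well, and 2 were called different from the mean of the later times. Their median log2 response was 7.12 at ZT6, 5.52 at ZT9 and 4.77 at ZT15. The 12 falls ran from -6.61 to -3.69, and 3 of them had at most 3 counts in every cold library. Of these, 10 were called lowered at no later time and 9 were called different from the later mean. Their median log2 response was -1.10 at ZT6, -0.76 at ZT9 and 0.52 at ZT15. Control replicate 3 was the highest library in 9 of the 12 falls. Without it, all 12 rises and 11 of the 12 falls were called. For some of the rises and falls, groups with 0 counts left the difference from the later mean without a usable SE. The test could not call those differences, so the counts of 2 and 9 are not a like comparison.

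The directions differed in the same way across all called genes. Of the 568 genes raised at ZT1, 227 (40.0%) were called raised at ZT6, 185 (32.6%) at ZT9 and 97 (17.1%) at ZT15. Over all genes tested, 2.37%, 1.76% and 0.789% were called raised at those times. Their median log2 responses were 0.81, 0.94 and 0.30, beside medians of -0.09, 0.00 and 0.02 over all genes. With genes at the 3-count floor held at their bounds, these medians were 0.76, 0.82 and 0.29. Of the 635 genes lowered at ZT1, 30 (4.72%) were called lowered at ZT6, 22 (3.46%) at ZT9 and 6 (0.945%) at ZT15. Over all genes, 0.827%, 0.362% and 0.214% were called lowered. Their median log2 responses were -0.16, -0.23 and -0.03. Without control replicate 3 at ZT1, 169, 153 and 94 raised genes and 26, 22 and 6 lowered genes were shared with ZT6, ZT9 and ZT15. With library totals, 191 of 644 raised and 28 of 293 lowered genes were shared with ZT6. The raised and lowered genes of that fit had median log2 responses of 0.43 and -0.52 at ZT6, where the median of all genes moved by -0.31. The shared calls at ZT9 and ZT15 depend on which libraries enter the fit. With only the libraries concerned, 186, 37 and 21 raised genes and 16, 0 and 0 lowered genes were shared. The later lists of that setting were short, with 379, 42 and 22 genes raised and 102, 0 and 0 lowered. No lowered gene could thus be shared with ZT9 or ZT15 there. Leaving out 1 library gave 16 to 29 shared lowered genes at ZT6, 11 to 39 at ZT9 and 2 to 11 at ZT15, and 64 to 122 shared raised genes at ZT15. The 16 at ZT6 arose without control replicate 2, cold replicate 1 or cold replicate 3 of that time. The 11 at ZT9 arose without control replicate 2 of that time. The 2 at ZT15 arose without control replicate 1 or cold replicate 3 of ZT1, among others possibly tied. The 64 arose without control replicate 3 of ZT15. The highest values at ZT9 and ZT15 left out cold replicate 3 of that time. Later responses come from other libraries and controls than those that chose the genes, so their smaller size includes the effect of having chosen genes for a large ZT1 change.

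Grouped by the number of later times at which they were called in the same direction, 317 raised genes were called at none (0), 81 at 1, 82 at 2 and 88 at all 3. The 88 were those with the larger changes, with a median log2 response of 3.18 at ZT1 and of 3.95, 3.37 and 2.78 at the later times. The 317 had a smaller median of 1.62 at ZT1, and 0.20, 0.36 and -0.02 later. Among the lowered genes, 593 were called at none (0), 30 at 1, 8 at 2 and 4 at all 3. The 593 had median log2 responses of -1.40 at ZT1 and -0.15, -0.16 and -0.01 later. A later call in the opposite direction was found for 11 raised and 16 lowered genes.

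Read from the later lists, the calls overlapped more on the raised side. The 227 genes shared with ZT6 were 52.4% of the genes raised at ZT6, the 185 shared with ZT9 were 57.5% of that list, and the 97 shared with ZT15 were 67.4%. Of all genes tested, 3.11% were called raised at ZT1. Genes raised at ZT6 had a median log2 response of 2.37 at their own time and 1.43 at ZT1, those raised at ZT9 2.31 and 1.71, and those raised at ZT15 2.28 and 2.25. On the lowered side the shared genes were 19.9%, 33.3% and 15.4% of the later lists. Of all genes tested, 3.48% were called lowered at ZT1. Genes lowered at ZT6 had a median of -1.48 there and -0.26 at ZT1, those lowered at ZT9 -1.85 and -0.72, and those lowered at ZT15 -1.42 and -0.24. The libraries of each later time chose its list, so the medians at that time are a description.

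**Figure D3:**
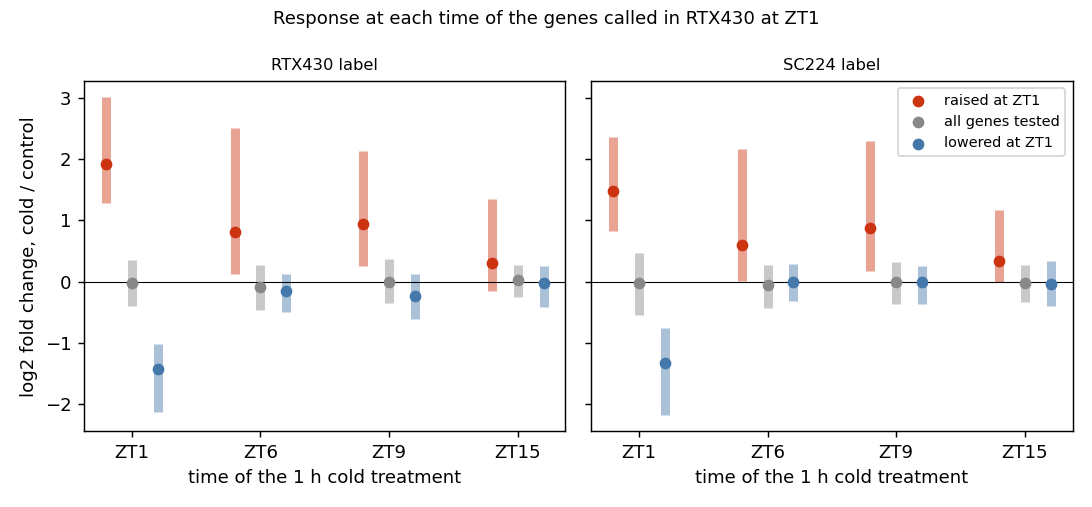
Median (point) and quartiles (bar) of the log2 fold change, cold over control, at each time of the 568 genes raised and the 635 genes lowered in RTX430 at ZT1, with all 18248 genes in grey. Raised genes keep a positive median at later times in both labels, from 0.30 to 0.94 in RTX430, while lowered genes lie near the median of all genes after ZT1.

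The size of the response at ZT1 was then compared directly with that at each later time, gene by gene, as a difference of fold changes. All these differences share the ZT1 libraries and are not independent of each other. Those with ZT15 and with the later mean also set day against night, with its lower growth temperature. What the light and the smaller step to 10 °C at night add to them was not tested. Against ZT6, 288 genes (1.58% of those tested) differed, 113 with a higher and 175 with a lower log2 response at ZT1. Against ZT9, 182 genes (0.997%) differed, 53 higher and 129 lower. Against ZT15, 363 genes (1.99%) differed, 177 higher and 186 lower. Against the mean of the later times, 467 genes (2.56%) differed, 167 higher and 300 lower. Without control replicate 3, 181, 90, 197 and 231 genes differed, in the same order. With only the libraries concerned, 36 genes differed from ZT9 and 189 from ZT15. A difference between times is harder to call than a response, since its median SE was 0.581 to 0.592 log2 units against 0.419 for the ZT1 response.

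The directions of these differences depend on the scaling. Scaling by library totals moved the median difference of all genes up by 0.50 against ZT6, 0.29 against ZT9, 0.15 against ZT15 and 0.31 against the later mean. The share of calls with a higher response at ZT1 then rose from 39.2% to 79.9% against ZT6, from 29.1% to 54.5% against ZT9, from 48.8% to 71.7% against ZT15, and from 35.8% to 69.0% against the later mean. No statement on which direction is the more frequent holds under both scalings.

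Among the 568 genes raised at ZT1, 80 (14.1%) rose more than at ZT6, 47 (8.27%) more than at ZT9, 153 (26.9%) more than at ZT15 and 153 (26.9%) more than the later mean. Among the 635 lowered genes, the fall was larger at ZT1 than at ZT6 in 132 (20.8%), than at ZT9 in 109 (17.2%), than at ZT15 in 149 (23.5%) and than the later mean in 248 (39.1%). The ZT1 libraries chose these genes and also enter the differences, so the shares are a description. Other fits also changed the lists, so their counts are given in the same order with the length of each list. Without control replicate 3, the counts were 42, 20, 89 and 75 of 358 raised genes. They were 66, 45, 75 and 111 of 325 lowered genes. With library totals, they were 145, 54, 187 and 199 of 644 raised genes and 40, 42, 68 and 85 of 293 lowered genes. With only the libraries concerned, they were 71, 8, 93 and 115 of 543 raised genes and 137, 23, 76 and 162 of 484 lowered genes. The 317 raised genes with no later call were not all shown to respond more at ZT1, since 133 of them passed the test against the later mean. Of the 593 lowered genes with no later call, 241 did.

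The 153 raised genes with a larger response at ZT1 than later had a median log2 response of 1.79 at ZT1 and of 0.05, 0.17 and -0.21 at ZT6, ZT9 and ZT15. The 248 lowered genes had medians of -1.52 at ZT1 and of 0.06, 0.10 and 0.20 later. A further 51 genes were lower in response at ZT1 without being called at ZT1. Their median log2 response was -0.59 at ZT1 and 1.25, 1.13 and 0.49 later, and 28 of them were called raised at a later time. Only 1 gene raised at ZT1 was called as raised less than at the later times, with log2 responses of 1.39 at ZT1 and 3.04, 3.09 and 2.10 later. The ZT1 and the later libraries both chose these groups of genes, so the medians at all times are a description.

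The 5 most positive differences from the later mean were 4.10 to 5.47 on the log2 scale, and the 5 most negative were -7.76 to -5.29. The most positive one belonged to a gene that reached only 0.667 CPM in the ZT1 cold libraries, against 61.7 CPM in the ZT9 controls. One of the 5 most negative was not called at ZT1 (adjusted p = 0.192 by edgeR), where its controls ran from 0 to 19.5 CPM and its cold libraries from 20.9 to 67.8 CPM. It was called raised at ZT6 and ZT9, where its controls averaged 0.085 and 0 CPM and its cold libraries 62.2 and 14.4 CPM. At ZT15 it was not called, at means of 0.0887 and 2.48 CPM (adjusted p = 0.203 by edgeR). Without control replicate 3, 3 of the 5 positive and 4 of the 5 negative differences were called.

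**Figure D4:**
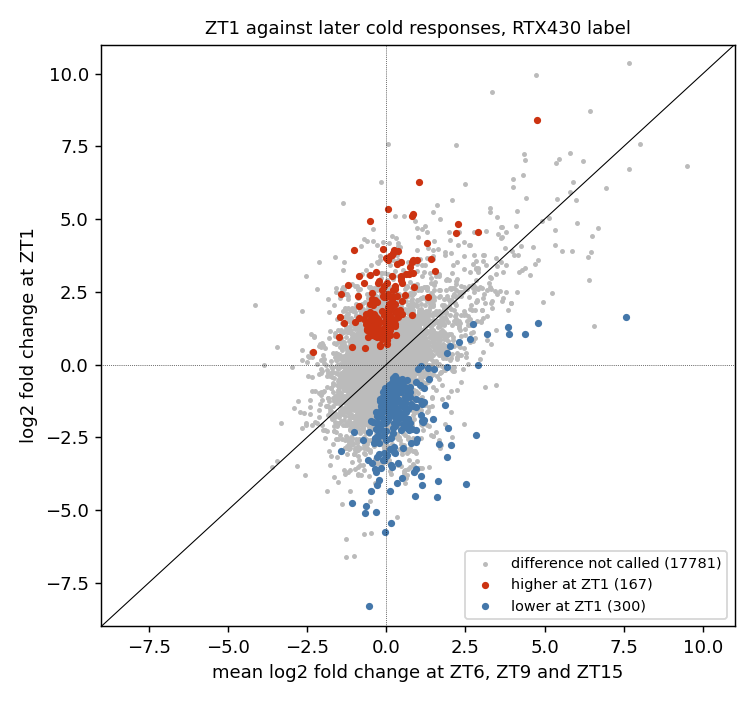
Log2 fold change at ZT1 (vertical) against the mean log2 fold change at ZT6, ZT9 and ZT15 (horizontal) in RTX430; each point is a gene and the diagonal marks equal responses. Genes with a called difference, 167 higher and 300 lower at ZT1, lie away from the diagonal on either side.

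The summed levels show how the controls moved over the day. The genes raised at ZT1 held 17790 to 20520 CPM in the ZT15 controls, more than the 10080 to 12130 CPM at ZT1, and 23660 to 30460 CPM in the cold at ZT15. The genes lowered at ZT1 fell in their controls from 70120 to 110160 CPM at ZT1 to 37920 to 50920 CPM at ZT6, 30830 to 40110 CPM at ZT9 and 20540 to 23180 CPM at ZT15. In the cold at ZT6 they held 38060 to 43970 CPM, and cold and control libraries overlapped at ZT6, ZT9 and ZT15. The ZT1 cold libraries, at 31050 to 32050 CPM, thus lay within the range of the controls at ZT9.

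Because the ZT1 controls of RTX430 helped to choose these genes, their daily pattern was read in the controls labelled SC224, which did not. There, 70.6% of the 635 lowered genes had their highest control level at ZT1, against 33.4% of all genes tested. Their median level, in log2 of CPM plus 1, was 5.25 at ZT1 and 4.48, 4.23 and 3.68 at the later times. The lowest level was at ZT15 in 59.1% of them, against 23% of all genes. The 568 raised genes had medians of 2.94, 3.62, 3.44 and 3.79. Their lowest control level was at ZT1 in 45.6%, against 38.5% of all genes, and their highest at ZT15 in 44.2%, against 29.6%. Without control replicate 1 of SC224 at ZT1, which is described below, 68.5% of the lowered genes were highest at ZT1 and 46.5% of the raised genes lowest. After 1 h of cold at ZT1, the lowered genes in SC224 had a median of 3.92 and the raised genes one of 4.46.

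**Figure D5:**
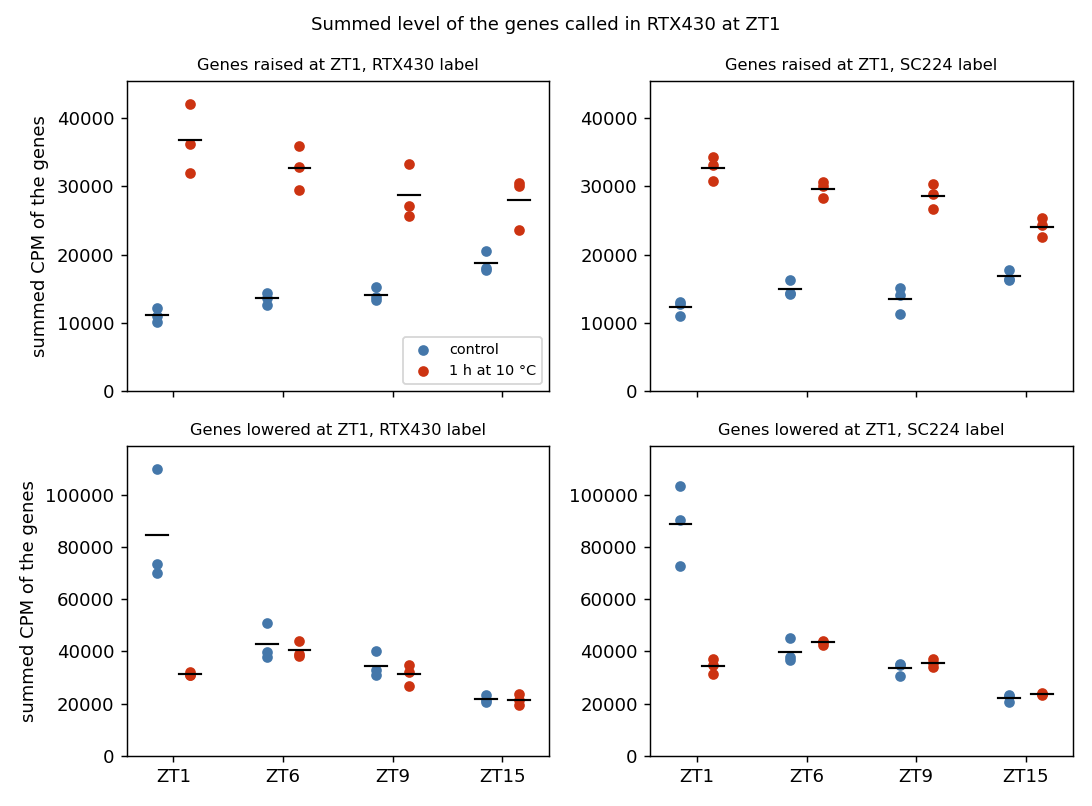
Summed level in CPM of the 568 genes raised (top) and the 635 genes lowered (bottom) in RTX430 at ZT1, in each library of the RTX430 and SC224 labels at the 4 times; points are libraries and lines their means. At ZT1 cold and control libraries are apart in both groups of genes, and the controls of the lowered genes drop from ZT1 to ZT15. In RTX430 the separation at ZT1 follows from the choice of the genes.

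The ZT1 response was largely shared with SC224 at the same hour. In SC224 4.95% of all genes were called raised and 6.13% lowered at ZT1, whereas 361 (63.6%) of the genes raised in RTX430 were raised there and 409 (64.4%) of the lowered genes were lowered. None (0) was called in the opposite direction. The median log2 responses in SC224 were 1.48 and -1.32. Control replicate 1 of SC224 at ZT1 stood apart: RTX430 genes gave 38.1% of the summed level of the genes that tell RTX430 and SC224 apart. Without it, 317 (55.8%) and 351 (55.3%) were called in the same direction, 2 raised genes in the opposite one, and the medians were 1.53 and -1.22. Tested directly, the response differed between the labels in 2 genes, both with a lower log2 response in SC224, by edgeR with adjustment over all genes. A raw p under 0.05 was reached by 1314 genes, and DESeq2 called 24. Few called differences do not show that the labels responded alike, since this difference had a median SE of 0.614 log2 units.

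In SC224 at ZT1, the summed counts of Sobic.002G421600 favoured the cold 81.9-fold (95% exact interval 22.2 to 684, 2 counts in the controls), beside 79.9-fold in RTX430 (36.5 to 219, 6 counts). Those of Sobic.010G212100 favoured the controls 37.9-fold (10.2 to 317, 2 counts in the cold), beside 44.0-fold in RTX430 (16.8 to 164). These intervals cover counting error only and are too wide to show that the labels responded alike. Sobic.007G204100 fell from 32.8 to 53.7 CPM in the SC224 controls to at most 0.644 CPM in the cold. Sobic.010G016500 stayed low in SC224 at ZT1, at 1.17, 0.875 and 1.29 CPM in the cold, against 29.2 to 51.1 CPM in RTX430. That difference of responses did not pass the test (adjusted p = 0.457 by edgeR), and in SC224 the gene reached 7.78 to 9.36 CPM in the cold at ZT6.

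Some of the called genes lay next to each other. By the order of their identifiers, 70 of the 568 raised genes (12.3%) and 62 of the 635 lowered genes (9.76%) had an adjacent tested gene called in the same direction. Of all genes tested, 6.02% had an adjacent gene called raised and 6.8% one called lowered. Runs of at least 3 such genes numbered 4 on the raised side, on chromosomes 1, 2, 7 and 10, and 2 on the lowered side, on chromosomes 2 and 4. The longest, 5 raised genes on chromosome 2, contained 3 of the 12 largest rises. Their fitted log2 responses, loose where controls were near the floor, were 3.12 to 6.99 at ZT1, 6.39 to 9.61 at ZT6 and 3.09 to 10.95 at ZT9. All 5 were called at ZT6 and ZT9 and 4 at ZT15. Neighbours with near-identical sequences may share reads, and how the authors' counting treated such reads is not given in the sources used here. Across chromosomes 1 to 10, raised genes made up 2.32% to 4.01% and lowered genes 1.58% to 4.12% of the genes tested.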

How the data were processed

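PolyA RNA of sorghum leaves was sequenced as single-end reads of 75 nt, per the labels' protocols. The authors deposited 1 table of raw counts for 34129 identifiers in 96 libraries; HISAT2 and DESeq2 are named in the submitters' processing notes without a version or role. Build, annotation and use of strand are not given in the sources used here. The treatment text names ZT0 where the labels and design name ZT1, and ZT1 was used.

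The deposited counts of all 48 libraries of the cold experiment were fitted together, as 16 group means, with edgeR 4.0.16 under R 4.3.3. The filterByExpr filter, set to a minimum count of 10 and a minimum total count of 15, kept 18248 genes, which hold at least 99.649% of a library's counts. Libraries were scaled with TMM, from 0.6041 to 0.9058 in the 6 ZT1 libraries. The quasi-likelihood F-test was used, with Benjamini-Hochberg adjusted p under 0.05 over all genes tested. The SE of a log2 fold change is its size divided by the square root of F. The common biological coefficient of variation was 0.354. The functions were tested on simulated counts. The 24 RTX430 libraries held 1575838 to 8046606 counts. At most 3 counts in every library of a group is treated as the floor, and intervals and floors cover counting error only, since PCR copies were not told apart.

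Genes were singled out by a rule: called at ZT1, cold and control libraries not overlapping, a group mean of at least 10 CPM, then the 12 largest rises and 12 largest falls; and the 5 most positive and 5 most negative differences from later times. Of these, 2 identifiers per direction are printed. The rule and the groups of genes were chosen with earlier results of these data known. Functional lists and cell type markers could not be applied without gene names. The alternatives were RLE size factors, library totals, DESeq2 1.42.0, no filter, only the libraries concerned, a replicate block, and leaving out each library.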

Additional observations from a re-analysis of the deposited data

Results flagged for a closer look

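The differences between times were flagged because the response at ZT1 was tested directly against the response at other times of the same label. The counts were 288 genes against ZT6, 182 against ZT9, 363 against ZT15 and 467 against the mean of the later times (edgeR, adjusted p under 0.05). Of the genes named, Sobic.002G421600 had a difference of 5.24 on the log2 scale between ZT1 and the later mean, and Sobic.010G212100 one of -5.59, a fitted size that is loose because some of its groups lie near the 3-count floor. Both kept their call in each of the 24 fits that left out 1 library, with ranges of 4.88 to 5.87 and -6.40 to -5.10. Control replicate 3 at ZT1 enters every one of these differences, and its part in them beyond the counts without it was not tested.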

How the results depend on the processing

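The ZT1 response comprised 1206 genes with RLE size factors, 937 with library totals, 977 without a filter, 1027 with only the libraries concerned, and 1389 with DESeq2, against 1203, and none (0) of the genes called in both changed direction. DESeq2 called 527, 287 and 564 differences from ZT6, ZT9 and ZT15, and 24 between the labels. With only the libraries concerned, 36 and 189 genes differed from ZT9 and ZT15, and 0 differed between the labels. The ZT9 and ZT15 responses then held 42 and 22 genes, against 388 and 183 when all 48 libraries were fitted. With library totals, 112 genes differed from ZT9 and 0 between the labels, and without a filter 0 did. The cause of these changes was not tested.

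Leaving out 1 library gave 683 to 1057 genes for the ZT1 response, 163 to 300 for the difference from ZT6, 90 to 191 from ZT9, 197 to 469 from ZT15, 231 to 484 from the later mean and 0 to 9 between the labels. The responses at the later times ranged from 420 to 498 genes at ZT6, 223 to 648 at ZT9 and 99 to 310 at ZT15. With all libraries they held 584, 388 and 183 genes. The lowest values for ZT1 and for its differences from ZT9, ZT15 and the later mean were those without control replicate 3, and without it 181 genes differed from ZT6. The lowest for ZT6 left out cold replicate 3 at ZT1. The highest at ZT9 and ZT15 left out cold replicate 3 of that time, and the lowest left out control replicate 2.

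At ZT1, cold and control libraries carry the same replicate numbers. Same-numbered libraries there deviated together with r of only 0.06, 0.26 and 0.30 across genes, so the numbers were not taken as pairs. At ZT9 and ZT15 the RTX430 cold libraries are numbered 1, 3 and 4 and the controls 1, 2 and 3. A replicate block thus holds fewer pairs at those times, and what this does to the counts was not tested. With the replicate block, 1107 genes were called at ZT1, 226, 75 and 146 differed from ZT6, ZT9 and ZT15, 352 from the later mean and 0 between the labels, and 539, 124 and 31 were called at ZT6, ZT9 and ZT15. Without a block, 584, 388 and 183 genes were called at these later times. With it, 208, 92 and 26 raised and 21, 4 and 0 lowered genes of ZT1 were shared with those times. The later lists with the block held 408, 119 and 29 raised and 131, 5 and 2 lowered genes. The 4 named genes kept their call and direction at ZT1 under all of these alternatives. Depth limits genes near the 3-count floor, whose sizes are bounds.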
